A study of Agaricus blazei with 33 samples.

Results

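Whole fruit bodies of *Agaricus blazei* strain JA were compared between the button and the harvest stage. The libraries were chosen by their labels, 3 of the button stage and 3 of the harvest stage, which makes 6 of the 33 libraries of the series. Both groups came from the same heterokaryotic cultivar, JA, grown on compost, and total RNA was sequenced. One group was labelled as fruit bodies taken at the button stage and the other as fruit bodies taken at the harvest stage. No treatment, mutation or age in days was given for either, nor whether several fruit bodies were pooled. The 3 pileus and 3 stipe libraries of each of these stages (12 in all) were used beside them. The labels do not say that replicates came from separate cultures, so p-values measure only the spread between these samples.

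A mushroom fruit body holds a pileus, the cap whose gills carry the spore-forming cells, on a stipe, the stalk that lifts it. At the button stage the cap is still closed over the gills by a veil, and the stipe is short. At harvest the cap has grown and the stipe has lengthened, mostly by expansion of cells already present. Known proteins of such tissues are hydrophobins, small secreted proteins that coat hyphae, multicopper oxidases such as laccases, which oxidise phenols, and tyrosinases, the copper enzymes of mushroom browning. In a library of a whole fruit body, a change in the share of cap or stalk and a change of RNA per cell cannot be told apart.

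The deposited table held FPKM, fragment counts scaled to gene length and a size for each library, for 10337 genes on 33 contigs. Of these, 8185 were predicted on the genome and 2152 were added from the reads. Added genes carry only a generic prefix and a running number in the table and are named here by their contig and position. A protein domain from Pfam was given for 6116 genes. The 6 libraries held 15745107 to 18174829 reads on genes, recovered from the FPKM, against 15573864 to 21454052 over all 33. The library size behind the FPKM was not this total. It was 1.15, 0.99 and 1.16 times the reads on genes at button and 1.06, 0.93 and 1.01 times at harvest. The 9206 genes with a mean of at least 0.5 FPKM over the 6 libraries were tested with limma on log2(FPKM + 0.1), a scale that understates the change of low genes. A gene was called where the p-value, with Benjamini-Hochberg adjustment across the 9206 genes, was under 0.05 and the log2 fold change (harvest minus button) was at least 1 in size. Single genes have no exact test here, since 3 against 3 libraries cannot go below p = 0.1.

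Values of the whole fruit bodies are listed in the order of libraries 1, 2 and 3. Not all libraries resembled the others of their label, and an exchange of labels between button fruit body 2 and button stipe 1 could not be settled from the labels. Button fruit body 2 resembled the stipes of its stage, with a correlation of 0.981 to button stipe 3 and 0.97 to button stipe 2 on the log2 scale across 9206 genes, which are not independent replicates. Its correlation to button fruit bodies 1 and 3 was 0.928 and 0.9. Conversely, button stipe 1 was nearer to button fruit bodies 1 and 3 (0.974 and 0.965) than to button stipes 2 and 3 (0.913 and 0.928). Markers of the parts, taken as genes that differed between pileus and stipe with a 2-unit or larger log2 fold change of the same sign at both stages, numbered 210 for the pileus and 199 for the stipe. The pileus markers summed to 48188, 12443 and 49072 FPKM in button fruit bodies 1 to 3 and to 47147, 29094 and 36529 FPKM in harvest fruit bodies 1 to 3. The stipe markers summed to 26544, 96103 and 18432 FPKM at button and to 17908, 34641 and 29140.5 FPKM at harvest. Button fruit body 2 was the lowest of the 6 in pileus markers and the highest in stipe markers. Among the other 5, these stipe markers overlapped between the stages, whereas both button libraries were above all 3 harvest libraries in pileus markers. The overlap depended on the marker list. Taken without button stipe 1, 267 stipe markers summed to 41603.5 and 28176.8 FPKM in button fruit bodies 1 and 3. In harvest fruit bodies 1 to 3 they summed to 47139.7, 86011.8 and 66312.9 FPKM, all above both button libraries. On the log2 scale the ratio of pileus to stipe markers was 0.86, -2.95 and 1.41 at button and 1.40, -0.25 and 0.33 at harvest, against -4.02 and -3.68 in button stipes 2 and 3. In each whole fruit body, 0 to 15 pileus markers and 0 to 4 stipe markers were at 0. Counts are therefore given with and without button fruit body 2. Of the 14 genes called lower below, 1, the added gene at 238112 on contig 11, was a pileus marker and 0 were stipe markers when the markers were taken without button stipe 1. Among all 9206 genes tested, 288 were pileus markers and 262 stipe markers by the same rule.

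**Figure D1:**
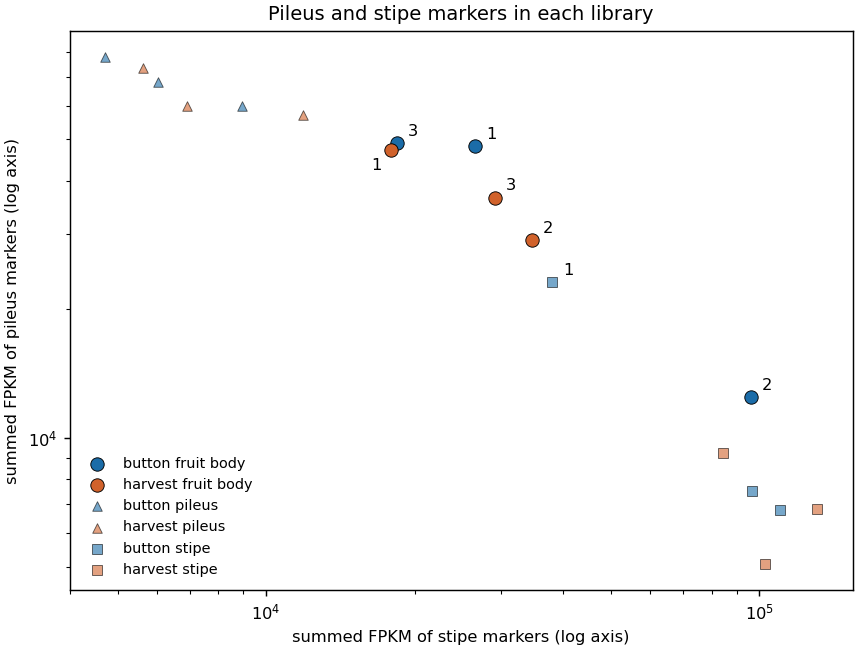
Summed FPKM of 199 stipe markers (x axis, log scale) against 210 pileus markers (y axis, log scale) in the 6 whole fruit body libraries (large circles, numbered) and the 12 pileus and stipe libraries of the same stages, 1 point per library. Button fruit body 2, at 12443 FPKM of pileus markers, lies with the stipes, and button stipe 1, numbered too, lies near the whole fruit bodies.

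Between button and harvest, 16 genes were called in the 6 libraries, 0.174% of the genes tested, of which 14 were lower (0.152%) and 2 were higher (0.0217%) at harvest. Without button fruit body 2, 87 of 9155 genes were called (0.95%), 55 lower (0.601%) and 32 higher (0.35%). Among the 16, 15 were called in both fits, A08947 was called only with button fruit body 2, and 72 genes were called only without it. The 16 genes include a tyrosinase with its neighbour, oxidoreductases, transporters and a gene with a protein kinase domain. At an unadjusted p under 0.05, 1028 genes were lower (11.2%) and 847 higher (9.2%). The 6 libraries did not overlap between the stages for 1380 lower (15%) and 1339 higher (14.5%) genes, 29.5% together. Over the genes tested, the median log2 fold change was -0.00 and 50.3% were negative. This balance depends on the scaling of the deposited values. Scaled by the total reads on genes, the median was -0.14, and -0.23 without button fruit body 2. Leaving out any 1 library changed the count, which rose only without button fruit body 2. Leaving out button fruit body 1 or any of the harvest fruit bodies left 0 calls, and leaving out button fruit body 3 left 1. The 16 genes were also called among 619 (6.68%, of which 1.84% higher and 4.83% lower) in a fit of the 18 whole, pileus and stipe libraries. With the marker ratio as a covariate, all 16 were among 698 called (7.58%, of which 2.64% higher and 4.94% lower). Both fits were chosen after seeing the data and hold the same 6 libraries, so they are not independent support. The adjusted p-values of the 16 lay between 0.0278 (A00437) and 0.0488 (A07777).

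The tyrosinase A02012 (contig 15, 847471 to 849568, minus strand) was lower at harvest. Tyrosinases oxidise phenols to quinones, which polymerise to brown pigment. Its level was 362, 236 and 200.1 FPKM at button and 30.2, 40.2 and 21.7 FPKM at harvest. The lowest button library was thus several times above the highest harvest library. The mean fell from 266 ± 84.8 to 30.7 ± 9.3 FPKM (SD, n = 3 each), a log2 fold change of -3.11 (SE 0.31, adjusted p = 0.0418), and of -3.17 (SE 0.35, adjusted p = 0.037) without button fruit body 2. The next gene of the table on this contig, A02014 (contig 15, 851472 to 852192, plus strand), for which no domain was given, moved with it. A02014 was at 484, 319 and 197 FPKM at button and 5.28, 17.7 and 3.59 FPKM at harvest, a log2 fold change of -5.46 (SE 0.62, adjusted p = 0.0471). Its harvest libraries differed among themselves, harvest fruit body 2 being the highest, and all lay below the button libraries.

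Of the 5 tyrosinases tested, A02012 was the 1 called. A02061, the most abundant, was at 4868, 15139 and 2408 FPKM at button and 5479.8, 9218 and 7084 FPKM at harvest, with button fruit body 2 the highest of the 6, and its log2 fold change was 0.34 with and 1.05 without that library. A00406 was at 874, 2078 and 706 FPKM at button and 1909.6, 3109.6 and 1953 FPKM at harvest, a log2 fold change of 1.06 (SE 0.45, adjusted p = 0.255) with all 6 libraries and of 1.53 (SE 0.29, adjusted p = 0.0636) without button fruit body 2. A02039 and A08292 overlapped between the stages, at log2 fold changes of 0.33 and 0.15, and A08292 was at -0.95 without button fruit body 2. On the FPKM scale, which is per length, A02061 exceeded A02012 in every library of the whole fruit body. A02061 was itself among the stipe markers.

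The 4 called oxidoreductases of other families were lower at harvest with little spread between replicates. A07544 (contig 4, 2116378 to 2117941, minus strand), an aldo/keto reductase, a family that reduces carbonyl groups, was at 53.6, 51.1 and 51.9 FPKM at button and 14.3, 18.2 and 15 FPKM at harvest, a log2 fold change of -1.72 (SE 0.16, adjusted p = 0.0375). A06901 (contig 3, 1792023 to 1793404, minus strand), of the same family, was at 16.6, 14.1 and 19.3 FPKM at button and 2.55, 2.81 and 2.72 FPKM at harvest, a log2 fold change of -2.57 (SE 0.21, adjusted p = 0.0278). For both genes button fruit body 2 lay close to the other button libraries. A08521 (contig 6, 1388130 to 1389140, plus strand) carries the AhpC/TSA domain of peroxiredoxins, enzymes that reduce peroxides, and was at 184, 187 and 178 FPKM at button and 74.5, 73.8 and 59.8 FPKM at harvest, a log2 fold change of -1.41 (SE 0.15, adjusted p = 0.0418). A07777 (contig 5, 999615 to 1000332, minus strand), described as a nitronate monooxygenase, was at 43.3, 41.7 and 46.7 FPKM at button and 16.2, 15.6 and 19.3 FPKM at harvest, a log2 fold change of -1.37 (SE 0.16, adjusted p = 0.0488). The groups did not overlap for any of the 4 genes, which the rule for naming called genes by size of change required.

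Transporters and a kinase gene formed a further group of called genes. A00569 (contig 11, 660846 to 662776, minus strand) and A09040 (contig 7, 1865070 to 1867307, plus strand) belong to the major facilitator superfamily, carriers of sugars and other small molecules across membranes. A00569 was at 11.1, 10.1 and 4.74 FPKM at button and 0.557, 0.638 and 0.631 FPKM at harvest, a log2 fold change of -3.54 (SE 0.38, adjusted p = 0.0418). A09040 was at 11.1, 11.1 and 9.16 FPKM at button and 1.38, 2.28 and 1.33 FPKM at harvest, a log2 fold change of -2.62 (SE 0.28, adjusted p = 0.0418). Harvest libraries of A00569 lay within a narrow range near the filter on low values. A04825 (contig 22, 593957 to 595907, plus strand), with a protein kinase domain and a GTPase domain, was at 5.9, 10.2 and 6.48 FPKM at button and 0.858, 0.865 and 0.894 FPKM at harvest, a log2 fold change of -2.93 (SE 0.30, adjusted p = 0.0418). Button fruit body 2 was the highest library of A04825, and without it the log2 fold change was -2.69.

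Of the 16 called genes, 8 had no described domain, against 3485 of the 9206 genes tested. A00437 (contig 11, 102880 to 103606, plus strand) was at 128, 134 and 46.4 FPKM at button and 1.89, 1.53 and 1.26 FPKM at harvest, a log2 fold change of -5.82 (SE 0.44, adjusted p = 0.0278). A05350 (contig 27, 32786 to 33364, minus strand) was at 32.8, 27.1 and 17.9 FPKM at button and 2.97, 2.68 and 3.36 FPKM at harvest, a log2 fold change of -3.03 (SE 0.27, adjusted p = 0.0375), and A05211 (contig 25, 237513 to 238135, minus strand) was at 24.6, 15 and 13.9 FPKM at button and 1.02, 0.732 and 2.02 FPKM at harvest, a log2 fold change of -3.79 (SE 0.42, adjusted p = 0.0418). All 3 were expressed at a low level at harvest rather than absent, with 39, 92 and 27 reads over the 3 harvest libraries. For the added gene at 238112 to 238399 on contig 11 and for A08947 no read was counted at harvest, against 24 and 26 reads at button. The level of the added gene was 2.32, 1.21 and 1.89 FPKM at button, with a mean 7.36-fold above a floor of 3 reads over the harvest group. That of A08947 was 1.14, 1.47 and 1.44 FPKM, with a mean 8.13-fold above the same floor. These floors cover the counting error at harvest only, not that of the button reads. Both genes passed the filter on low values through their button libraries alone, so only a fall could be seen. The adjusted p of A08947 was 0.0526 without button fruit body 2.

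Both genes called higher at harvest were without a described domain. A05108 (contig 24, 240550 to 242293, plus strand) was at 30.6, 35.5 and 35.3 FPKM at button and 128, 118 and 111 FPKM at harvest, a log2 fold change of 1.81 (SE 0.14, adjusted p = 0.0278). Its replicates were close to each other at both stages, and the groups were well apart. An added gene (contig 26, 39589 to 40504, minus strand) was at 21.6, 11.2 and 14.4 FPKM at button and 107, 169 and 112 FPKM at harvest, a log2 fold change of 3.05 (SE 0.30, adjusted p = 0.0418). Harvest fruit body 2 was its highest library and button fruit body 2 its lowest.

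**Figure D2:**
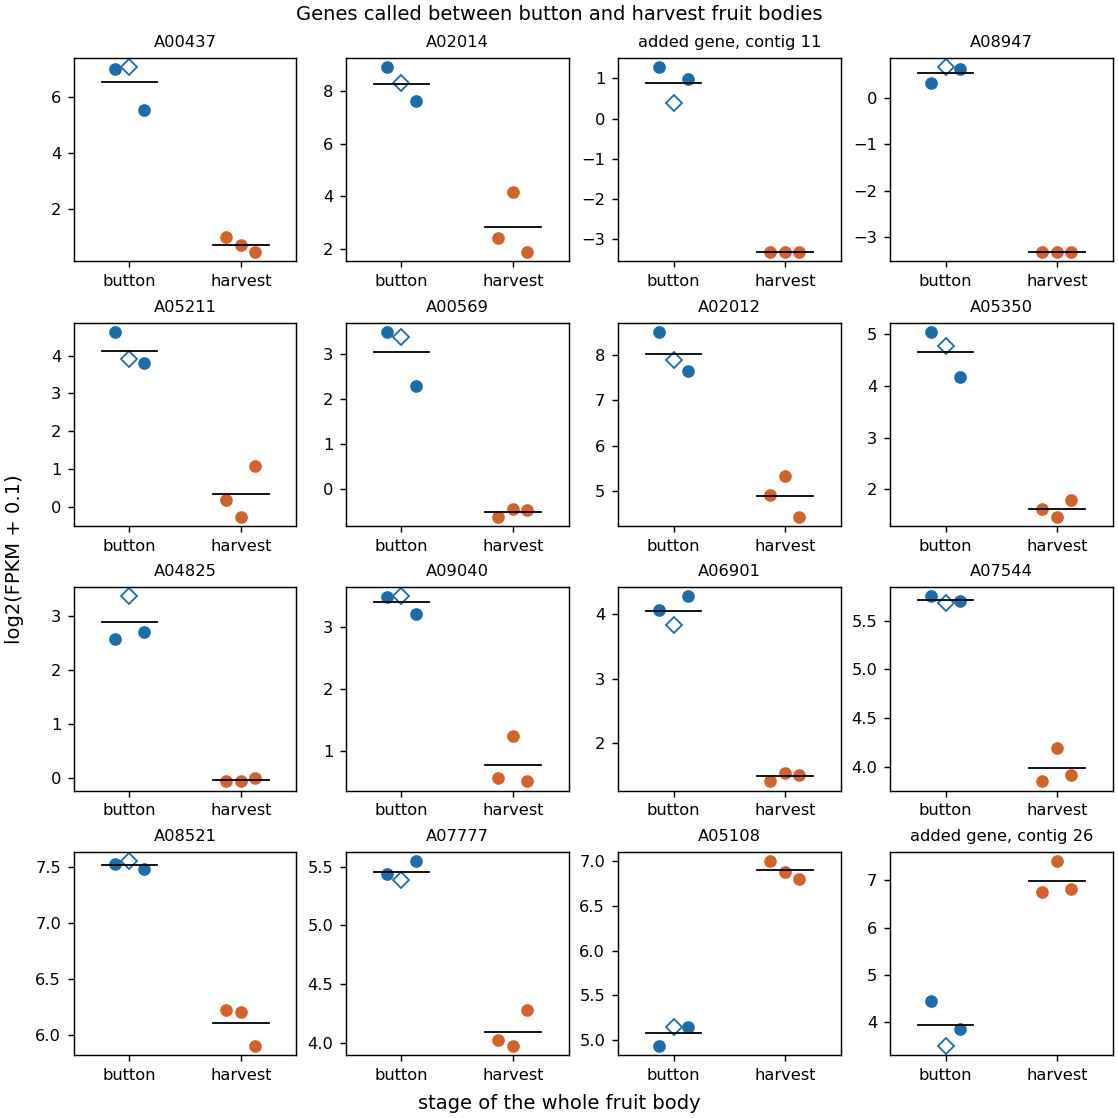
Level of each of the 16 called genes as log2(FPKM + 0.1) (y axes, scales differ) in button and harvest whole fruit bodies (x axes), 1 point per library with the mean of 3 as a bar. Button fruit body 2 is the open diamond, and it lies within or near the other button libraries for the called genes. The stages are apart for all 16, which the naming rule required of 15 of them.

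The same stages were compared in the parts, in separate libraries. The 12 pileus and stipe libraries were fitted together and shared an estimate of the spread. In the pileus 209 genes were called between button and harvest (2.25%; 157 higher, 1.69%, and 52 lower, 0.559%), and in the stipe 1361 (14.6%; 619 higher, 6.65%, and 742 lower, 7.97%). Without button stipe 1 the calls were 244 higher and 117 lower in the pileus and 618 higher and 786 lower in the stipe, and without harvest pileus 1 the pileus had 69. All 14 genes called lower in the whole fruit body had a negative log2 fold change in the pileus and 13 in the stipe, where the exception, A05350, was at 0.03. The part comparisons called few of them, 1 lower in the pileus and 3 lower in the stipe. A00437 was the one called in the pileus, at 39.3, 11.4 and 61.5 FPKM in button and 0.195, 0 and 2.69 FPKM in harvest pileus, a log2 fold change of -6.12 (SE 1.23, adjusted p = 0.0229). The aldo/keto reductase A07544 was called in the stipe, at 79, 48.2 and 50.2 FPKM in button and 15.6, 11.6 and 16.1 FPKM in harvest stipes, a log2 fold change of -2.0 (SE 0.24, adjusted p = 0.000251). The kinase gene A04825 and the transporter A09040 were the others called in the stipe, at log2 fold changes of -2.6 (SE 0.32, adjusted p = 0.000294) and -1.8 (SE 0.53, adjusted p = 0.0245). For A04825 the pileus libraries overlapped, at 3.09, 1.9 and 2.04 FPKM at button and 2.61, 1.24 and 2.27 FPKM at harvest.

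For some of the lower genes, button stipe 1 stood apart from the other stipes. A02012 was at 712, 33 and 87.5 FPKM in button stipes 1 to 3 and at 208, 70 and 83.7 FPKM in button pileus 1 to 3, against 49, 27.4 and 43.7 and 17.9, 19.4 and 49.4 FPKM in harvest stipes and pileus. The button parts apart from stipe 1 thus lay below the whole button fruit bodies of this tyrosinase or close to the lowest of them, and harvest pileus 3 was above the other harvest pileus libraries. A05211 was likewise highest in button stipe 1, with 61.2, 3.48 and 11.7 FPKM in button stipes, 16, 0.442 and 1.4 FPKM in button pileus, 9.47, 2.07 and 4.27 FPKM in harvest stipes and 0.893, 0.659 and 4.55 FPKM in harvest pileus. Library 1 was the highest of the button libraries of A05211 in the whole fruit body, the pileus and the stipe alike.

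A stage change that differed between the whole fruit body and the mean of its parts was called for 100 of 9270 genes (1.08%; 43 higher, 0.464%, and 57 lower, 0.615%) in the 18 libraries. Leaving out button fruit body 2 alone left 13 such calls. Among the 16 genes, the added gene of contig 26 was the one with such a difference, of 3.6 (SE 0.67, adjusted p = 0.0226) on the log2 scale. It was at 31.6, 25.2 and 24.2 FPKM in button and 32.8, 75.2 and 18.9 FPKM in harvest pileus, and at 11.5, 11.2 and 8.0 FPKM in button and 3.97, 1.26 and 8.08 FPKM in harvest stipes. Every harvest whole fruit body was therefore above every pileus and stipe library of the gene. The difference was 3.39 (adjusted p = 0.0565) without button fruit body 2 and 3.34 (SE 0.75, adjusted p = 0.0329) without button fruit body 2 and button stipe 1.

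**Figure D3:**
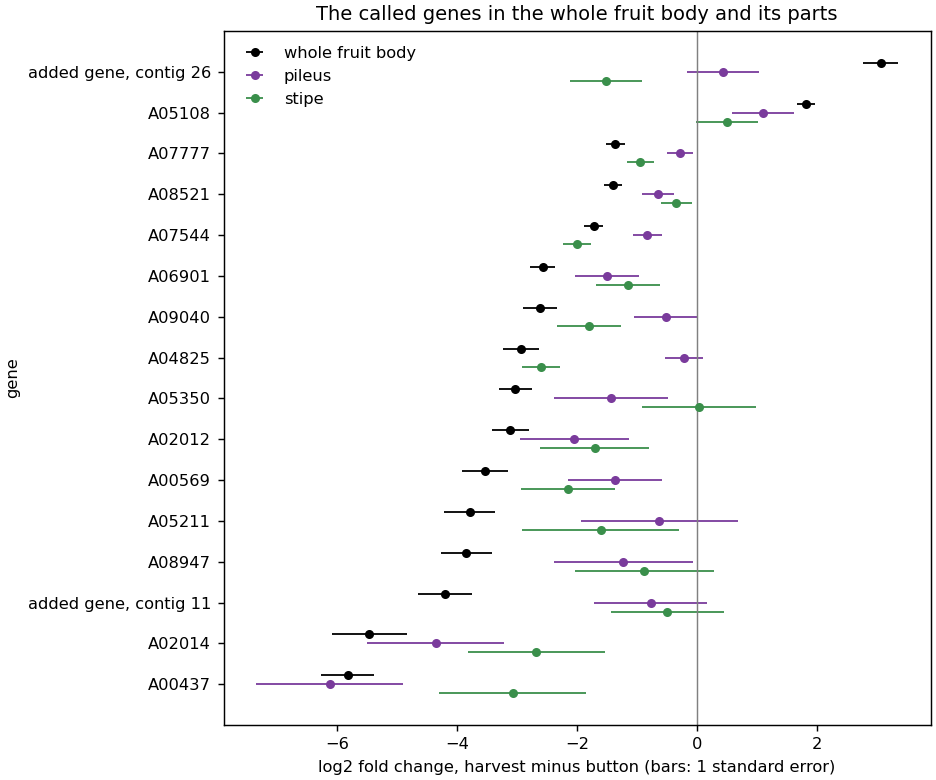
Log2 fold change, harvest minus button, with 1 standard error (x axis) of the 16 called genes (y axis) in the whole fruit body, the pileus and the stipe, each from 3 libraries a stage. The 14 lower genes lie below 0 in the pileus too, and the stipes of A05350 (0.03) and of the added gene of contig 26 (-1.52) lie on the other side of 0 from the whole fruit body.

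With button fruit body 2 left out, 42 further genes were called lower and 30 higher, from 2 against 3 libraries. Several of them lay beside another called gene. Of the 87 genes called without this library, 15 were neighbours on their contig, against 2 of 16 with it. No such share was computed for other genes, so grouping along the contigs was not tested. A pair on contig 10 was A00230, a glutamine amidotransferase of class I, and A00231. A00230 was at 1280.3, 25.6 and 1029.5 FPKM at button and 117, 145 and 62.7 FPKM at harvest, so that button fruit body 2 lay below the harvest libraries, and its log2 fold change was -1.67 with it and -3.49 (SE 0.36, adjusted p = 0.0347) without it. A00231 was at 140.2, 18.9 and 114 FPKM at button and 16.1, 17.7 and 9.19 FPKM at harvest, with log2 fold changes of -2.27 and -3.19 respectively. For A02553, a gene with a GTPase domain on contig 17, and its neighbour A02554 the excluded library was instead the highest. A02553 was at 114, 561 and 92.6 FPKM at button and 8.65, 5.51 and 10.8 FPKM at harvest, a log2 fold change of -3.66 (SE 0.30, adjusted p = 0.0347) without button fruit body 2. A02554 was at 65.6, 484 and 59.1 FPKM at button and 4.47, 7.14 and 11.9 FPKM at harvest. A07778 (contig 5, 1002249 to 1003601, minus strand), next to A07777 and likewise described as a nitronate monooxygenase, was at 169, 54.6 and 159 FPKM at button and 27.2, 15.9 and 9.52 FPKM at harvest, with log2 fold changes of -2.82 (SE 0.55, adjusted p = 0.09) with and -3.34 (SE 0.42, adjusted p = 0.0407) without this library. A05212, a bestrophin-type chloride channel next to A05211, was at 5.95, 6.93 and 6.57 FPKM at button and 0.42, 0.682 and 1.11 FPKM at harvest, and both fits gave a like fold change of -3.06 and -3.01.

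Further genes called lower without button fruit body 2 encode surface, transport and metabolic proteins. The hydrophobin A01024 (contig 12, 956225 to 956694, plus strand) was at 11.5, 0.781 and 11 FPKM at button and 0.146, 0 and 0 FPKM at harvest, a log2 fold change of -6.39 (SE 0.56, adjusted p = 0.0347), with 1 read over the harvest libraries. A04475, with a PBP superfamily domain, was at 70.5, 3.28 and 58.3 FPKM at button and 0.0511, 1.58 and 0.0578 FPKM at harvest, a log2 fold change of -7.55 (SE 1.09, adjusted p = 0.049). Both were near the harvest level in button fruit body 2. A01024 passed the filter on low values through its button libraries alone, so only a fall could be seen. Carriers in this group were the amino acid permease A10091 (-2.12 on the log2 scale), the MatE exporter A01807 (-2.74), the sodium/hydrogen exchanger A01298 (-1.37) and an added gene at 1266969 on contig 1, related to UNC-93 (-1.22). A04386 (contig 20, 116208 to 119886, plus strand), with the 2 domains of trehalose phosphate synthesis and dephosphorylation, was at 25.5, 28.9 and 29.7 FPKM at button and 12.6, 11.3 and 12.1 FPKM at harvest, a log2 fold change of -1.21 (SE 0.16, adjusted p = 0.057) with and -1.19 (SE 0.16, adjusted p = 0.0476) without button fruit body 2. The stage groups of A04386 were well apart, with button fruit body 2 between the other button libraries. A06331, with a DNA-binding domain of the heat-shock factor type, was at 289, 437 and 343 FPKM at button and 167, 154 and 151 FPKM at harvest, and A00764, of the eIF-6 family that acts in assembly of the large ribosomal subunit, was at 75.4, 79.1 and 63.6 FPKM at button and 33.9, 32.8 and 28.9 FPKM at harvest. Their log2 fold changes without button fruit body 2 were -1.0 and -1.12. Other members were the RhoGAP and RasGEF domain gene A04826 (-1.47), which lies next to A04825, the cytochrome P450 A03653 (-1.78), the O-methyltransferase A05236 (-1.81), the LysM domain gene A04416 (-1.1) and the protein kinase A03511 (-2.0).

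Among the 30 genes called higher only without button fruit body 2 were enzymes of families that act in fatty acid oxidation. The thiolase A02422 (contig 16, 1069320 to 1070591, plus strand) was at 164, 248 and 158 FPKM at button and 327, 330.4 and 323 FPKM at harvest, a log2 fold change of 1.02 (SE 0.12, adjusted p = 0.0407). A09800 (contig 9, 530091 to 531403, minus strand), of the enoyl-CoA hydratase/isomerase family, was at 19.5, 22.7 and 16 FPKM at button and 54, 47.3 and 49.1 FPKM at harvest, a log2 fold change of 1.5 (SE 0.16, adjusted p = 0.0347). A08744, with a MaoC-like domain, a fold of some hydratases, was at 49.7, 91.4 and 39.4 FPKM at button and 202, 262 and 164 FPKM at harvest, a log2 fold change of 2.21 (SE 0.23, adjusted p = 0.0347). No button library of these 3 genes reached a harvest library, button fruit body 2 included. The list of fatty acid and lipid genes as a whole was at a median log2 fold change of 0.07 over 51 members tested (0.01 without button fruit body 2), with 0 called with 6 libraries and 1 without button fruit body 2. A09763, an aminotransferase of class I and II, was at 151, 237 and 132 FPKM at button and 382, 491 and 437 FPKM at harvest, a log2 fold change of 1.62 (SE 0.17, adjusted p = 0.0347). A05322, an alpha-galactosidase, was at 19, 19.2 and 17.5 FPKM at button and 53.7, 61.6 and 43.6 FPKM at harvest, a log2 fold change of 1.52 (SE 0.19, adjusted p = 0.0407). A09200, with a domain like that of pyridoxamine phosphate oxidase, was at 142, 110.3 and 110.2 FPKM at button and 289, 379 and 328 FPKM at harvest, a log2 fold change of 1.4 (SE 0.19, adjusted p = 0.0466). Both A05322 and A09200 had narrow button groups and missed the threshold with all 6 libraries, at adjusted p = 0.0533 and 0.0557.

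For some other genes of this group, button fruit body 2 was within or above the range of the harvest libraries. A07516, with a protein tyrosine kinase domain, was at 178, 487 and 186 FPKM at button and 553, 549 and 429.6 FPKM at harvest. A03023, with an F-box-like domain, a motif of ubiquitin ligases, was at 27.5, 59.1 and 26.7 FPKM at button and 58.8, 55.2 and 60.7 FPKM at harvest. Their log2 fold changes were 1.0 and 0.72 with this library and 1.48 and 1.1 without it. A05692 on contig 2 and the added genes on either side of it (starting at 709888 and 711694) were all in this group, with A05692 at 255, 1132 and 159.7 FPKM at button and 676, 827 and 848 FPKM at harvest. A02844, with the NACHT domain of signalling NTPases, was at 7.83, 20.8 and 4.75 FPKM at button and 32.5, 45 and 34.9 FPKM at harvest, and the cytochrome P450 A05062 was at 44.8, 83.8 and 33 FPKM at button and 116, 160.4 and 121 FPKM at harvest. For these 2 genes button fruit body 2 lay between the other button libraries and the harvest libraries, and their log2 fold changes without it were 2.58 and 1.76. A04733, a P-type cation ATPase, was at 4.85, 4.84 and 3.68 FPKM at button and 14.5, 16 and 12.7 FPKM at harvest, a log2 fold change of 1.74 (SE 0.22, adjusted p = 0.0407), and button fruit body 2 lay beside button fruit body 1. An added gene at 336824 on contig 12 was near the filter on low values, with 7 reads at button and 76 at harvest. It passed that filter through its harvest libraries alone, so only a rise could be seen.

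Genes called in the same direction in both the pileus and the stipe numbered 31 higher and 20 lower, and they were named here after their values were seen. By limma, 0 were called in the whole fruit body with 6 libraries, where 15 of the 31 and 9 of the 20 had an unadjusted p under 0.05, against 9.2% (higher) and 11.2% (lower) of all genes tested. Voom on recovered reads called 0 genes of the table, with 19.9% in either direction at an unadjusted p under 0.05. A03196 was called lower without button fruit body 2. Of the 31, 30 had a positive log2 fold change in the whole fruit body and 13 did not overlap between the stages, against 14.5% of all genes tested. Their median was 1.10, and 1.43 without button fruit body 2, against -0.00 and -0.02 over all genes tested. All 20 lower ones had a negative log2 fold change, 10 of them without overlap, against 15% of all genes tested, with a median of -0.87 (-0.89 without button fruit body 2). Of these, the cytochrome P450 A08561 (contig 6, 1545002 to 1546563, plus strand), of an oxygenase family of lipid and secondary metabolism, was at 197, 119 and 171 FPKM at button and 19.4, 24.4 and 6.67 FPKM at harvest, a log2 fold change of -3.42 (SE 0.49, adjusted p = 0.0657), against -5.82 (SE 0.71, adjusted p = 0.00223) in the pileus and -4.27 (SE 0.71, adjusted p = 0.00143) in the stipe. The harvest whole fruit bodies were all above the harvest parts, which were at 2.61, 2.54 and 5.34 FPKM in harvest pileus and 4.55, 4.26 and 0.626 FPKM in harvest stipes. A01478, with an RNA-dependent RNA polymerase domain as in RNA silencing, was at 75.1, 94.3 and 89.6 FPKM at button and 28.4, 34.2 and 41.9 FPKM at harvest, a log2 fold change of -1.32 (SE 0.19, adjusted p = 0.0657), against -1.84 and -1.02 in the parts. A07545, next to the aldo/keto reductase A07544, was at 267, 359 and 139 FPKM at button and 47.7, 124 and 57.3 FPKM at harvest, a log2 fold change of -1.76 (SE 0.47, adjusted p = 0.127). A06903, an aldo/keto reductase close to A06901, was at 17.6, 64.5 and 15.9 FPKM at button and 1.62, 3.26 and 6.05 FPKM at harvest, a log2 fold change of -3.0 (SE 0.68, adjusted p = 0.105), with button fruit body 2 the highest, and of -2.36 without it.

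Among the genes higher in both parts, A09764 (contig 9, 413343 to 416411, plus strand), which had no described domain, was at 29.6, 83 and 28.3 FPKM at button and 92.5, 310.3 and 326 FPKM at harvest, a log2 fold change of 2.35 (SE 0.62, adjusted p = 0.127), and it lies next to the aminotransferase A09763. The added gene at 460831 to 464581 on contig 11 was at 13.7, 17 and 10.6 FPKM at button and 39.9, 83.9 and 54.2 FPKM at harvest, a log2 fold change of 2.06 (SE 0.32, adjusted p = 0.0685). A05498, with a domain of base excision repair glycosylases, was at 15.2, 13.5 and 13.9 FPKM at button and 33.8, 65.1 and 70.3 FPKM at harvest, a log2 fold change of 1.91 (SE 0.30, adjusted p = 0.0685). None of these passed the test in the whole fruit body, although their stage groups did not overlap. A07437 spread more, at 10.4, 38.7 and 0.947 FPKM at button and 124, 64.3 and 47.5 FPKM at harvest, with button fruit body 2 well above button fruit body 3, and its log2 fold change was 3.27 with and 4.45 without that library. The exception in sign was A03360, with a starch-binding module, at 28.2, 54.8 and 50.7 FPKM at button and 40.6, 40 and 27.3 FPKM at harvest. It rose by a log2 fold change of 2.26 in the pileus and 2.95 in the stipe, but was at -0.27 in the whole fruit body, a difference of -2.88 (SE 0.36, adjusted p = 0.0052) that was also called without button fruit body 2. A pair of neighbouring cytochrome P450 genes on contig 28 was called lower in both parts. A05456 was at 89.2, 148 and 88.1 FPKM at button and 51.7, 86.6 and 71.8 FPKM at harvest, and the difference of its stage change from the parts was 2.51 (SE 0.53, adjusted p = 0.0356). A05457 was at 367, 202 and 286 FPKM at button and 221, 359 and 253 FPKM at harvest, a difference of 2.14 (SE 0.49, adjusted p = 0.0457). Neither difference was called without button fruit body 2, at adjusted p = 0.0509 and 0.0979.

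Across 39 gene lists made from the domain descriptions, the called genes fell in few. Of the 138 major facilitators and sugar transporters tested, 2 were lower, of 79 short-chain dehydrogenases and aldo/keto reductases 2, of 137 protein kinases 1 and of 5 tyrosinases 1, against 0.152% of all genes tested. No member of any list was called higher with 6 libraries. A08521 was outside the list of antioxidant enzymes, whose words did not match its description, and 0 of the 61 genes tested on that list were called, with 13 lower and 3 higher at an unadjusted p under 0.05, against 11.2% and 9.2% of all genes tested. With calls when button fruit body 2 was left out were the lists of the major facilitators (1 higher, 2 lower), protein kinases (1 higher, 2 lower), short-chain dehydrogenases (2 lower), F-box and BTB genes (2 higher), cytochrome P450 genes (1 higher, 1 lower), hydrophobins, multicopper oxidases, tyrosinases, amino acid and nitrogen transporters, trehalose and glycogen genes and G-protein signalling genes (1 lower each), and fatty acid and NACHT genes (1 higher each). Over all genes tested in that fit, 0.35% were called higher and 0.601% lower. Members tested with 6 libraries numbered 123 on the F-box and BTB list, 135 on the cytochrome P450 list and 374 on the NACHT list.

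**Figure D4:**
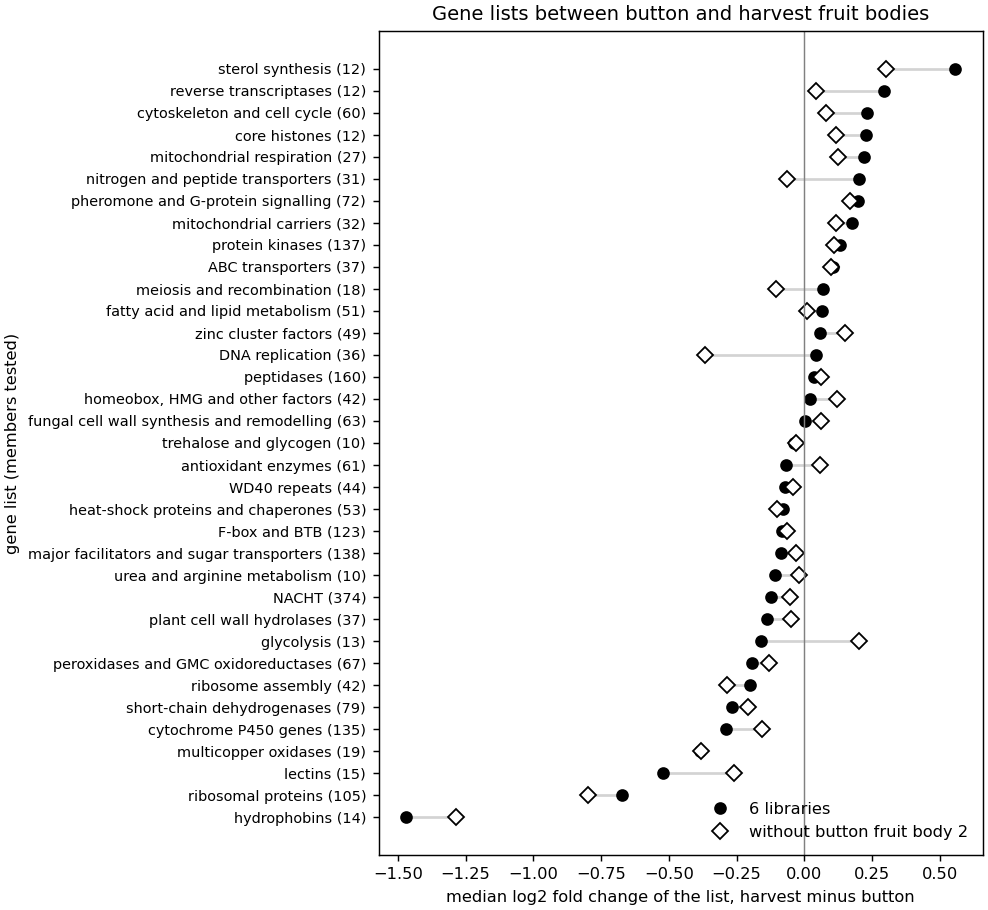
Median log2 fold change, harvest minus button (x axis), of the gene lists with at least 10 members tested (y axis, members in brackets), with all 6 libraries (filled) and without button fruit body 2 (open). Ribosomal proteins lie at -0.67 and -0.80, while DNA replication moves from 0.04 to -0.37 and glycolysis from -0.16 to 0.20.

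The plot of list medians has hydrophobins lowest and ribosomal proteins next. Of 105 ribosomal protein genes tested, 0 were called and 74 had a negative log2 fold change (50.3% of all genes tested), with a median of -0.67, or -0.80 without button fruit body 2. At an unadjusted p under 0.05, 19 were lower (11.2% of all genes tested). Without overlap, 10 were lower and 0 higher, and the lower count is below the 15% of all genes tested. They summed to 43724, 24374 and 47248 FPKM in button fruit bodies 1 to 3 and to 30063, 15753 and 22112 FPKM in harvest fruit bodies 1 to 3, so that the sums overlapped through button fruit body 2. Ribosomal protein sums also differed between the parts, at 49215 to 70408 FPKM in button pileus, 43714 to 65211 FPKM in harvest pileus, 16605 and 17341 FPKM in button stipes 2 and 3, and 14354 to 18751 FPKM in harvest stipes. The medians of this list in the parts were -0.18 in the pileus and -0.33 in the stipe (0.02 without button stipe 1). A00024, a protein of the large subunit and the most abundant member, was at 1438, 2353 and 1306 FPKM at button and 871, 917 and 812 FPKM at harvest, a log2 fold change of -0.92 (SE 0.27, adjusted p = 0.149). Factors of ribosome assembly, which build the subunits, had a median of -0.20 over 42 members (-0.29 without button fruit body 2).

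The medians of some lists differed with and without button fruit body 2. DNA replication genes had a median log2 fold change of 0.04 over 36 members with all 6 libraries and of -0.37 without button fruit body 2. Glycolysis genes went from -0.16 to 0.20 over 13 members. Sterol synthesis genes, which make ergosterol, had 10 of 12 members above 0 and a median of 0.56, or 0.30 without this library, with 0 called. Their sums were 1658, 1057 and 2262 FPKM at button and 2537, 2152 and 2060 FPKM at harvest. In the parts the sterol list went the other way, with medians of -0.18 in the pileus and -0.46 in the stipe (-0.31 without button stipe 1). The stipe comparison called 1 of its members higher and 2 lower, and the pileus comparison 0. Genes of mitochondrial respiration were above 0 in 22 of 27 members, with a median of 0.22 (0.12 without button fruit body 2) and sums of 8733, 7167 and 8562 FPKM at button and 9853, 8604 and 9950 FPKM at harvest. By limma 0 members of these 4 lists were called, and at an unadjusted p under 0.05 the DNA replication list held 1 higher and 5 lower genes, the sterol list 2 higher, respiration 1 lower and glycolysis 0, against 9.2% higher and 11.2% lower of all genes tested.

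The 2 most abundant multicopper oxidases were above their button level in every harvest library, while more members of the family were lower than higher. A04923 (contig 22, 393101 to 395383, minus strand), the most abundant, was at 1474, 713 and 956 FPKM at button and 4129.6, 5252 and 2786 FPKM at harvest, a log2 fold change of 1.97 (SE 0.37, adjusted p = 0.09). A05193, a laccase, was at 959, 333 and 624 FPKM at button and 2215, 1432 and 2721 FPKM at harvest, a log2 fold change of 1.81 (SE 0.44, adjusted p = 0.111). Every harvest library was above every button library for both genes, and neither was called. In the parts A04923 had a log2 fold change of 0.89 in the pileus and -2.02 in the stipe, and the whole fruit body differed from their mean by 2.54 (SE 0.38, adjusted p = 0.00789). A04922, next to A04923, was at 9.89, 5.07 and 14.8 FPKM at button and 2.29, 2.19 and 1.94 FPKM at harvest, with log2 fold changes of -2.04 (SE 0.41, adjusted p = 0.09) with and -2.45 (SE 0.27, adjusted p = 0.037) without button fruit body 2. A05207 was at 11.9, 3.56 and 1.3 FPKM at button and 0.261, 0.0374 and 0.148 FPKM at harvest, a log2 fold change of -4.1 (SE 0.83, adjusted p = 0.0922). This gene passed the filter on low values through its button libraries alone, so only a fall could be seen. The median of the 19 members tested was -0.38, with 9 lower and 4 higher without overlap, against 15% and 14.5% of all genes tested, while the sums were 2646, 1273 and 1812 FPKM at button and 6527, 6851 and 5689 FPKM at harvest. A06810 was at 8.48, 6.58 and 10.2 FPKM at button and 6.56, 6.88 and 11.2 FPKM at harvest and overlapped, and A01869 was under the filter, at no more than 0.247 FPKM in any of the 6 libraries.

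All 14 hydrophobins tested, of 25 on the list, had a negative log2 fold change with 6 libraries, against 50.3% of all genes tested. Their median was -1.47 (-1.28 without button fruit body 2), but the replicates were far apart. In the parts the list had medians of -0.24 in the pileus and -0.31 in the stipe (-0.20 without button stipe 1). Called there were 1 lower in the pileus, and 2 higher and 3 lower in the stipe. A06219, the highest by its mean, was at 17562, 783 and 17241 FPKM at button and 12653, 5916 and 2412 FPKM at harvest, a log2 fold change of -0.13 (SE 1.32, adjusted p = 0.97), and of -1.62 (SE 0.71, adjusted p = 0.206) without button fruit body 2. Button fruit body 2 was the lowest of the 6 for this gene, which belonged to the pileus markers when button stipe 1 was left out. A08707 was at 3903, 2759.7 and 5225 FPKM at button and 2440.1, 3164 and 5170.2 FPKM at harvest, a log2 fold change of -0.17 (SE 0.40, adjusted p = 0.854), and the groups overlapped, whereas it was called in the parts, at a log2 fold change of -2.1 (SE 0.36, adjusted p = 0.0118) in the pileus and -1.99 (SE 0.36, adjusted p = 0.00214) in the stipe. A01044, the third by its mean, was at 2536, 2644 and 1509 FPKM at button and 834, 14.5 and 158 FPKM at harvest, a log2 fold change of -4.12 (SE 1.35, adjusted p = 0.173). A01017 was at 25, 13.1 and 22.6 FPKM at button and 10.7, 7.09 and 8.89 FPKM at harvest, with log2 fold changes of -1.14 (SE 0.30, adjusted p = 0.127) with and -1.43 (SE 0.22, adjusted p = 0.0531) without button fruit body 2. A04048 was at 1.83, 3.88 and 2.69 FPKM at button and 1.51, 2.42 and 2.22 FPKM at harvest, with overlap. Of the 14, 3 were lower without overlap and 0 higher, against 15% and 14.5% of all genes tested.

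The beta-1,3-glucan synthase genes, which make the main glucan of the fungal wall, did not pass the test. A09123, called AbFKS1, was at 90.3, 108 and 106 FPKM at button and 118, 162 and 129 FPKM at harvest, a log2 fold change of 0.41 (SE 0.18, adjusted p = 0.254). A09827, called AbFKS2, was at 39.1, 35.3 and 43.4 FPKM at button and 37.5, 44.1 and 39.7 FPKM at harvest, a log2 fold change of 0.04 (SE 0.16, adjusted p = 0.909). The groups of A09123 did not overlap and those of A09827 did. In the stipe the log2 fold change of A09123 was 0.56. Lectins, sugar-binding proteins, included A04976, at 2506, 689.6 and 2204 FPKM at button and 5562, 4018 and 4939 FPKM at harvest, a log2 fold change of 1.62 (SE 0.52, adjusted p = 0.167), and of 1.03 (SE 0.27, adjusted p = 0.0921) without button fruit body 2. The 15 lectins tested had a median of -0.52 (-0.26 without button fruit body 2), with 6 positive and 9 negative. The sugar transporter A01900 was at 523, 670.0 and 698 FPKM at button and 1112, 3196 and 1635 FPKM at harvest, a log2 fold change of 1.52 (SE 0.40, adjusted p = 0.127), and the Ras family gene A03682 was at 1034, 817 and 1014 FPKM at button and 1565, 1975 and 2029.9 FPKM at harvest, a log2 fold change of 0.96 (SE 0.22, adjusted p = 0.107). For these 3 genes button and harvest libraries did not overlap, and none was called.

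The called genes had different levels in the other stages of the series, given here as values only. The tyrosinase A02012 was at 9618, 8025 and 7121 FPKM in the mycelia, at 406, 146 and 217 FPKM in the primordia and at 31.8, 22.6 and 13.1 FPKM in whole fruit bodies of the maturation stage. Its neighbour A02014 was at 12793, 12740.0 and 11011 FPKM in the mycelia, 550.2, 212 and 369 FPKM in the primordia and 15.1, 10.7 and 2.57 FPKM at maturation. The mycelia held the highest levels of both genes. A05350 was at 1197, 1300.0 and 1129 FPKM in the mycelia, 53.2, 35.1 and 45.6 FPKM in the primordia and 4.27, 4.57 and 1.6 FPKM at maturation. The kinase gene A04825 had another order, with 4.66, 4.55 and 3.08 FPKM in the mycelia, 22.4, 25.4 and 21.4 FPKM in the primordia and 1.93, 1.59 and 7.3 FPKM at maturation, so that the primordia were highest. A07544 was at 38, 34.1 and 35.7 FPKM in the mycelia, 98, 92.1 and 86.8 FPKM in the primordia and 69.7, 56.9 and 13.1 FPKM at maturation, where library 3 was well below libraries 1 and 2. These maturation libraries differed in their marker ratio too, which was -4.51, -2.08 and 1.22 on the log2 scale. A05108, higher at harvest, was at 16.4, 17.3 and 13.5 FPKM in the mycelia, 50.8, 54.4 and 54.2 FPKM in the primordia and 15.7, 19.1 and 36.7 FPKM at maturation, all below its harvest libraries. For the added gene of contig 26 the corresponding values were 3.77, 4.16 and 1.52 FPKM, 12.1, 9.9 and 10.5 FPKM and 2.94, 19.7 and 49.4 FPKM.

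**Figure D5:**
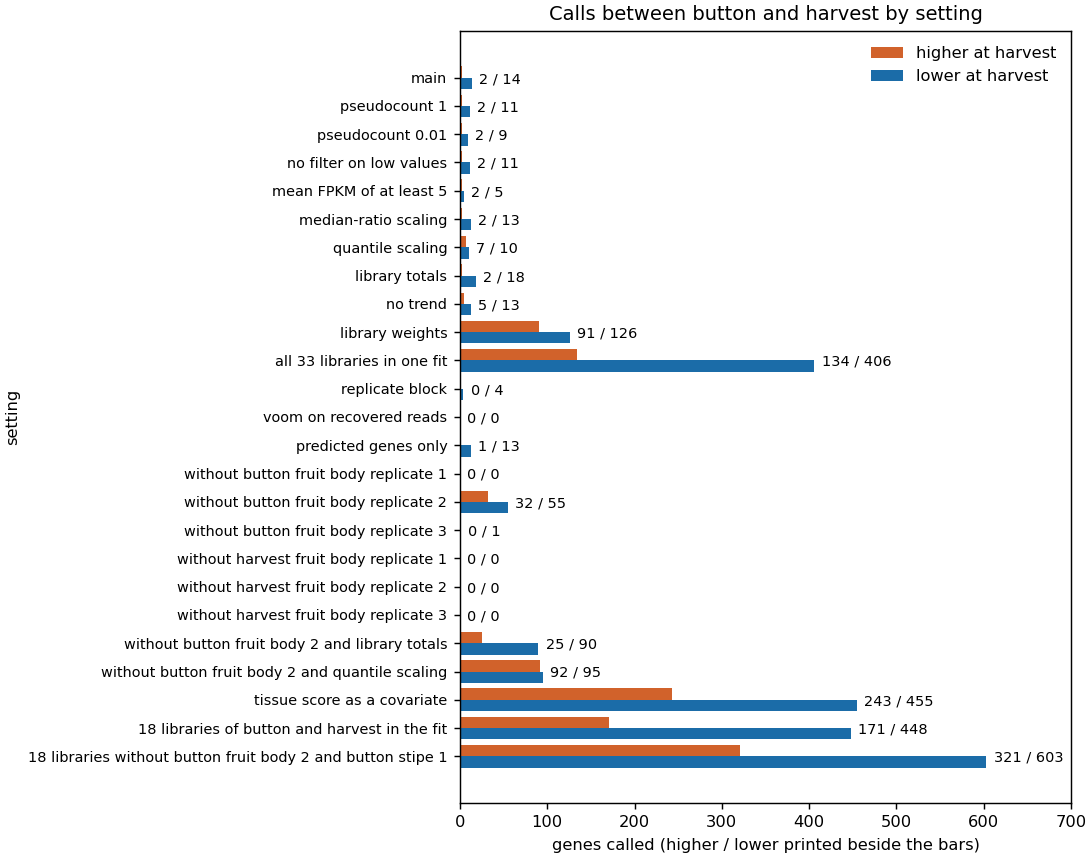
Number of genes called higher and lower at harvest (x axis) under each setting (y axis), printed as higher / lower. The count is 2 / 14 with the 6 libraries, 32 / 55 without button fruit body 2, 0 / 0 or 0 / 1 without any other single library, and 171 / 448 in the fit of 18 libraries.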

How the data were processed

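The authors sequenced total RNA (TRIzol extraction, NEBNext Ultra libraries, paired reads on the HiSeq X platform) from 11 groups of 3 samples, aligned it with Hisat2 to the genome of the homokaryotic strain JA-15036, assembled further genes with StringTie and counted reads with featureCounts 1.5.0-p3. The deposited values are FPKM per gene. For multi-mapped reads, strand and the exact formula the setting was not given in the sources used here, so overlapping genes (349) and close paralogs may share reads. Samples were grouped by their labels. All values were whole reads within 1e-06 once divided by the value of 1 read, which gave depths of 15745107 to 18174829 reads in the 6 libraries and floors of 3 reads. FPKM were tested as log2(FPKM + 0.1) by limma 3.58.1 (R 4.3.3; variance prior trended on the mean) on genes with a mean of at least 0.5 FPKM, harvest against button, from the 6 libraries. Pileus and stipe were fitted together on their 12 libraries, and the difference of the whole from the mean of its parts on 18. The tests were checked on simulated data. Alternatives were other pseudocounts, filters and scalings, library weights, all 33 libraries in 1 fit, a replicate block, voom on the recovered reads and each library left out. A fit with the marker ratio as covariate and the 18-library fits were added after seeing the data. The groups, gene lists and rules were chosen with earlier results of these data known. Named were the called genes, by size of change, with and without button fruit body 2, the most abundant or most changed members of lists, and the glucan synthases, laccases and hydrophobins that the study described. Genes named by size of change had to be called with and without button fruit body 2, with no overlap between the stages. Columns of annotation were used only for names, and no sequences were used here.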

Additional observations from a re-analysis of the deposited data

Results flagged for a closer look

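For 18 of the genes that the naming rule or the parts brought in, the stage change of the whole fruit body differed from the mean of the changes of pileus and stipe in the fit of 18 libraries (limma, adjusted over 9270 genes, 1.08% called). The rule and the parts together brought in 184 tested genes. Many were named for calls in libraries that also enter this fit, so the 18 cannot be compared with the share of all genes. The differences, whole minus parts on the log2 scale, were positive for the added gene of contig 26 (3.60, adjusted p = 0.0226), the amino acid permease A03944 (2.80, 0.0346), the multicopper oxidase A04923 (2.54, 0.00789), the cytochrome P450 genes A05456 (2.51, 0.0356) and A05457 (2.14, 0.0457), A08479 (2.02, 0.0189), A01616 (1.80, 0.0242), the cation ATPase A04733 (1.52, 0.0189), A01035 (1.49, 0.0189), the enoyl-CoA hydratase family gene A09800 (1.44, 0.0346), the Ras family gene A03682 (1.10, 0.0496) and the alpha-galactosidase A05322 (1.08, 0.0346). They were negative for A03360, with a starch-binding module (-2.88, 0.0052), the laccase A04922 (-1.75, 0.0453), A03264 (-1.59, 0.0191), the added gene at 2136249 on contig 2, with an SH3 domain (-1.50, 0.0377), A00791, the highest member of the trehalose and glycogen list, which carries a glycosyltransferase domain beside ribosomal protein domains (-1.24, 0.0303), and the trehalose phosphate gene A04386 (-1.12, 0.0068). Leaving out 1 library at a time kept the sign of all 18, but 4 to 18 of them stayed called. The 4 called without button fruit body 2 were A04923, A04922, A04386 and A03360, and 4 were called without harvest fruit body 2. Without both button fruit body 2 and button stipe 1, all 18 kept their sign, and A03682 no longer passed the test (0.95, adjusted p = 0.0625). Groups of 3 libraries were not screened for single values that stand apart.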

How the results depend on the processing

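The direction of the 16 called genes was kept in all 22 to 24 other settings that gave a value, and each was called in 9 to 19 of them. These settings reused all or most of the same 6 libraries, whose stages did not overlap for these genes. A kept direction is therefore not independent support. The number of calls (16, 2 higher and 14 lower) was not stable. Leaving out 1 library gave 0 to 87 calls (0 to 32 higher, 0 to 55 lower), the highest without button fruit body 2. It was 7 (5 lower) with a mean of at least 5 FPKM, 217 (91 and 126) with library weights, 540 (134 and 406) with all 33 libraries in 1 fit and 0 with voom on recovered reads (0 higher, 0 lower), where 1830 genes had an unadjusted p under 0.05. Leaving out button fruit body 2 it was 115 (25 and 90) with library totals and 187 (92 and 95) with quantile scaling. With the marker ratio as a covariate it was 698 (243 and 455), with 18 libraries 619 (171 and 448), and with 18 without button fruit body 2 and button stipe 1 924 (321 and 603), all 3 added after seeing the data. Quantile scaling gave 7 higher, no variance trend 5 higher, predicted genes alone 1 higher and a pseudocount of 0.01 9 lower. Scaling by library totals shifted the median over the genes tested from -0.00 to -0.14 (log2), and called 20 genes.

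Differences of the whole from its parts (100) were 63 with quantile scaling, 154 with library totals, 1187 with library weights, 265 without button fruit body 2 and button stipe 1, and 13 (without button fruit body 2) to 325 (without harvest stipe 3) with 1 library left out. The pileus calls (209) were 620 with library weights, 45 with all 33 libraries and 69 (without harvest pileus 1) to 361 (without button stipe 1) with 1 library left out, and those of the stipe (1361) 1087 to 1617. Whether replicate numbers pair the libraries could not be settled. The deviations of same-numbered libraries correlated at 0.36, 0.35 and 0.02, and those of different-numbered libraries at -0.43 to 0.37. A replicate block gave 4 calls (0 higher, 4 lower), of which 1, A00437, was among the 16, so that the other 15 were lost. The causes of these differences in count were not tested. With 3 libraries a stage, low genes such as A08947 and the added gene at 238112 on contig 11 rest on 26 and 24 reads.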
